A study of Mus musculus with 9 samples.

Results

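A set of 9 B lineage genes was followed through the 6 lymphoma and 3 CD4 libraries of the series, as a measure of B cell RNA in each: Ebf1, Pax5, Cd79a, Cd79b, Ms4a1, Blnk, Fcer2a, Cd22 and Ighm. They were picked by symbol from the 46078 genes of the count table, each symbol matched 1 row, and all 9 passed the filter on low counts that left 15401 genes. The lymphomas were T cell lymphoma cells induced by MYCN and taken from the thymus. The controls were CD4+ T cells from the spleen, and all libraries came from the C57BL/6J strain. The labels give no promoter, Cre line, age or sex for the animals and no sorting or purity for the cells. They do not say whether 1 number stands for 1 animal, so the spread between libraries may be technical in part. RNA was read from transcript 3′ ends, and each library is named by its number, lymphoma 34, 53, 56, 70, 72 and 86 and CD4 1, 2 and 3. The series addresses MYCN and EZH2 in T cell lymphoma, and the contrast of its design is lymphoma against CD4.

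B cells are specified by a chain of transcription factors in which EBF1 and PAX5 switch on the B lineage programme and hold it in place. The programme includes the antigen receptor, an immunoglobulin whose first heavy chain is encoded by Ighm, held at the surface by the signalling chains CD79A and CD79B. Cytoplasmic kinases and the adaptor BLNK relay its signal, while CD22 restrains it. Mature T cells express none of these proteins as a rule, so their transcripts in a T cell preparation are commonly read as a sign of B cells in it. That reading concerns mature T cells. Whether it holds for Ighm RNA in lymphoma cells of the thymus was not tested.

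The 9 genes were chosen with the contrast of lymphoma and CD4 in view, so their differences between the groups are descriptions and carry no test. Of the 15401 tested genes, 46.6% differed between the groups in the quasi-likelihood fit of edgeR at an adjusted p under 0.05, and 22.3% had every lymphoma below every CD4 library in CPM. CPM values are reads per 1000000 gene reads after TMM scaling of the library. All 9 genes were of the second kind. Their CD4 counts, at least 68 in each library, were enough to pass the filter on low counts whatever the lymphoma counts. The 9 were also chosen with this contrast in view, so that this number carries no support. Gene counts per library ran from 11170704 to 15769679 in lymphoma and from 8099960 to 10808828 in CD4. The CD3 chains were expressed in both groups. Cd3e had 157 ± 30.0 CPM (SD, n = 3) in CD4 and 176 CPM as the lymphoma mean, and Cd3d 432 and 453 CPM. Cd3g went the other way, with 132 CPM in CD4 and 107 CPM in lymphoma. No CD3 chain was past the threshold. Cd4 itself stood at 240 ± 35.5 CPM in CD4 and between 6.04 and 71.9 CPM in lymphoma. Cd8a and Cd8b1, the chains of the CD8 coreceptor that CD4+ T cells lack as a rule, were also present in every CD4 library, at 25.6 to 31.8 and 35.9 to 44.9 CPM. In lymphoma they ranged from 0.0645 to 29.4 and from 0 to 47.6 CPM. Lymphoma 53 stood apart from the other lymphomas across all genes, with correlations to them of 0.884 to 0.900, against 0.939 to 0.980 among the rest.

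The transcription factors come first. Ebf1 (ENSMUSG00000057098, GRCm38 chromosome 11, 44617317 to 45008091) had 204, 252 and 204 CPM in CD4 1, 2 and 3. In lymphomas 34, 53, 56, 70, 72 and 86 it had 0.709, 0.731, 1.89, 1.22, 1.18 and 0.722 CPM, from 8 to 26 counts each. The 3 CD4 libraries lay close together, and no lymphoma reached 1% of their mean. Pax5 (ENSMUSG00000014030, chromosome 4, 44524757 to 44710487) was the steadiest of the genes in CD4, at 122, 119 and 119 CPM. Its lymphoma values were 0.580, 0.183, 1.38, 0.796, 0.393 and 1.66 CPM in the same order, lowest in lymphoma 53 and highest in lymphoma 86. The fitted log2 fold change, lymphoma over CD4, was -7.65 (SE 0.288) for Ebf1 and -7.15 (SE 0.422) for Pax5. Both genes overlap antisense genes in the annotation, and the strand setting of the counting is not given in the sources used here. The overlapping genes with counts had 3 lymphoma counts for Ebf1 and 7 for Pax5 in all.

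The signalling chains of the receptor and its adaptor come next. Cd79b (ENSMUSG00000040592, chromosome 11, 106311341 to 106314762) had 141, 142 and 116 CPM in CD4. It had 3.09, 1.55, 2.33, 0.857, 0.262 and 1.08 CPM in lymphomas 34, 53, 56, 70, 72 and 86. The highest lymphoma was 34 and the lowest 72, 11.8-fold apart, on 48 and 4 counts. Cd79a (ENSMUSG00000003379, chromosome 7, 24897381 to 24902197), the partner chain, had few counts in every library. It had 8.21, 8.16 and 10.1 CPM in CD4, from 68 to 110 counts, and no more than 6 counts in any lymphoma, with 0 in lymphoma 34. The floor of 3 counts, taken here as the limit that a count of 0 allows, is 0.193 CPM in that library and covers counting error only. Blnk (ENSMUSG00000061132, chromosome 19, 40928927 to 40994535), which couples the kinase SYK to downstream enzymes, had 72.7, 86.6 and 59.4 CPM in CD4. Its lymphoma values were 1.55, 1.28, 0.728, 0.919, 0.720 and 1.01 CPM, the narrowest range of the genes other than Ighm.

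The promoter windows of 3 of these genes are shown because the genes share their low level in lymphoma while the short sequences looked for are shared by few of them. Each window runs from 250 bases before to 50 bases after a RefSeq start site in GRCm38.p6, 5′ to 3′, and capitals mark a match to a motif searched. The windows are chr7:24897247-24897546, plus strand, for Cd79a, chr19:40994172-40994471, minus strand, for Blnk and chr7:30878979-30879278, minus strand, for Cd22.
Cd79a: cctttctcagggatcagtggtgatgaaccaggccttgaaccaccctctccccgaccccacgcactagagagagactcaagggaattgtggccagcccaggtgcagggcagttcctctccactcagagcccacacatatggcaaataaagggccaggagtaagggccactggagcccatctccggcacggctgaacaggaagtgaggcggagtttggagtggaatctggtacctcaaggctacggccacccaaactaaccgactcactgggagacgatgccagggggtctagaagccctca
Blnk: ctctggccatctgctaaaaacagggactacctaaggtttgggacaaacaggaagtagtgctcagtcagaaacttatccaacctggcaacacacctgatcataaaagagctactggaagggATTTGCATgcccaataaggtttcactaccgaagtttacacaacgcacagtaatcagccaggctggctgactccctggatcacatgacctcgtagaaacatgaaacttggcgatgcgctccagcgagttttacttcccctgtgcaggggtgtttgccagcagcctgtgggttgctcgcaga
Cd22: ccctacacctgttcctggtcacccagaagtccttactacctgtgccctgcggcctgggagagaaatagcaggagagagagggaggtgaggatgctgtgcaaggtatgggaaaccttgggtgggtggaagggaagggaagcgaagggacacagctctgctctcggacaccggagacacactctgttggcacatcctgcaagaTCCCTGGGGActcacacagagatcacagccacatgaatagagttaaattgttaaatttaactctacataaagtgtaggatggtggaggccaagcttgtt
The motifs were CCCNNGGG and its longer form with T before and A after it, which EBF1 is known to bind, and the octamer ATTTGCAT, bound by POU factors such as the product of Pou2f2. Both strands were searched, and any match to the longer form is also a match to the shorter. RefSeq windows were matched for 6 of the 9 genes, 9 windows in all, with 3 for Fcer2a and 2 for Ebf1. Cd22 held both forms of the EBF1 motif, starting 49 bases before its start site for the longer form. Blnk held the octamer, starting 130 bases before its start site. No other window of the 6 genes held an exact match. Variant forms of the motifs were not searched, so a window without a match, such as that of Cd79a, is not shown to lack a binding site. Among all 32851 windows of the same length, 13.7% held CCCNNGGG, 0.904% its longer form and 1.74% the octamer. These matches describe letters only.

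Genes of 3 surface proteins of mature B cells followed. Ms4a1 (ENSMUSG00000024673, chromosome 19, 11249675 to 11266241), which encodes CD20, had 231, 204 and 186 CPM in CD4. It had 0.258, 0.0913, 0.437, 1.29, 1.18 and 2.38 CPM in lymphomas 34, 53, 56, 70, 72 and 86, on 1 to 33 counts. Lymphoma 86 was 26.1-fold above lymphoma 53, the widest ratio among the genes detected in every lymphoma. Cd22 (ENSMUSG00000030577, chromosome 7, 30865402 to 30880342), the inhibitory lectin whose promoter is shown above, had 94.7, 97.1 and 91.7 CPM in CD4. In lymphoma it had 0.193, 0, 0.146, 0.919, 0.131 and 1.01 CPM, so that lymphomas 70 and 86, with 15 and 14 counts, lay above the other 4, with 0 to 3. Fcer2a (ENSMUSG00000005540, chromosome 8, 3681737 to 3694175), which encodes the low-affinity IgE receptor CD23 of follicular B cells, had 42.4, 44.2 and 33.9 CPM in CD4. All 6 lymphomas together held 6 counts of it, with 0 in lymphomas 53 and 70. The pooled ratio of CD4 to lymphoma was 567, with an exact 95% interval of 260 to 1549 for counting error only.

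Ighm (ENSMUSG00000076617, chromosome 12, 113418558 to 113422730), the constant region of the IgM heavy chain, was unlike the other 8 genes in the lymphomas. It had 1374, 944 and 1119 CPM in CD4. It had 300, 283, 242, 373, 404 and 355 CPM in lymphomas 34, 53, 56, 70, 72 and 86, from 3096 to 6169 counts. Every lymphoma was below every CD4 library, yet none was near 0, and the lymphoma mean was 28.5% of the CD4 mean. The residue, the lymphoma mean as a percentage of the CD4 mean, was 0.175% for Fcer2a, 0.423% for Cd22, 0.453% for Ms4a1, 0.489% for Ebf1 and 0.692% for Pax5. It was 1.15% for Cd79b, 1.42% for Blnk and 2.02% for Cd79a, the last on 14 lymphoma counts in all. The lowest residue of Ighm in any lymphoma, 21.1%, exceeded the highest of any other gene in any lymphoma, 4.91% for Cd79a in lymphoma 86. The fitted log2 fold change was -1.81 (SE 0.181) for Ighm, and between -8.97 and -5.61 for the other 8, against a median of 0.04 over all tested genes.

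**Figure D1:**
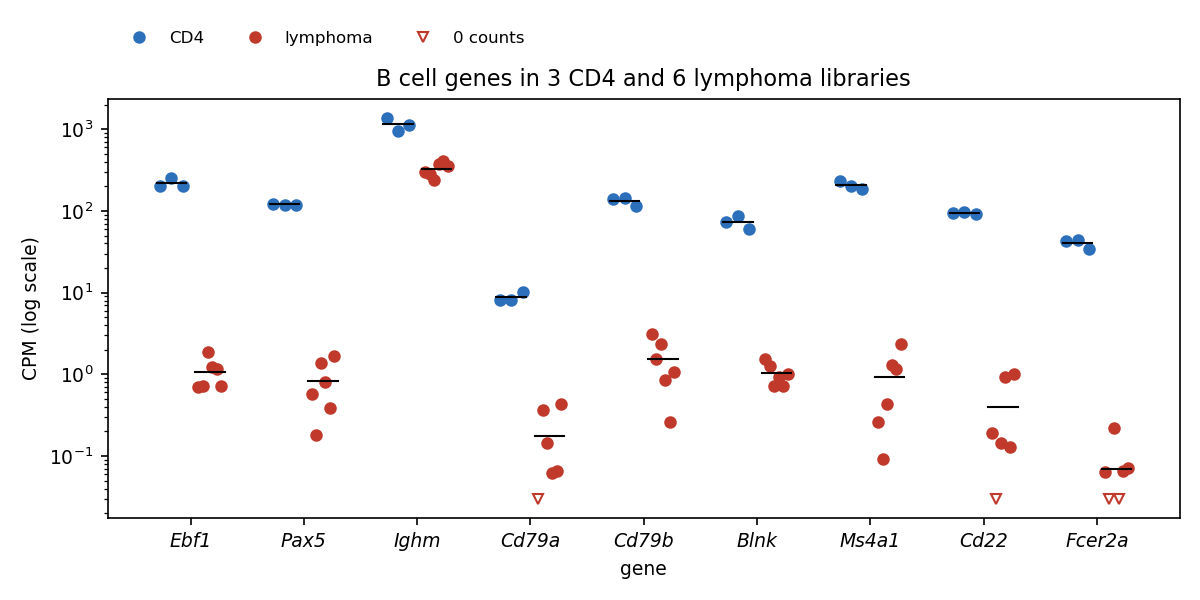
CPM on a log scale of the 9 genes in each library, CD4 in blue and lymphoma in red, with the group mean as a black line and libraries at 0 counts as open triangles at an arbitrary height. Ighm lies at 242 to 404 CPM in lymphoma, and no other gene exceeds 3.09 CPM there.

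The summed level of the genes depended on whether Ighm was in it. The 9 genes summed to 2042 ± 216 CPM (SD, n = 3) in CD4 and 332 ± 60.8 CPM (SD, n = 6) in lymphoma, a residue of 16.3%. Without Ighm the sums were 896 ± 69.0 CPM in CD4 and 6.06 ± 1.72 CPM in lymphoma, a residue of 0.676%. Ighm made up 55.8% ± 5.37 of the 9 genes' counts in a CD4 library and 98.1% ± 0.689 in a lymphoma. Lymphoma by lymphoma, the 8 genes summed to 6.45, 4.20, 7.28, 6.06, 3.99 and 8.37 CPM in 34, 53, 56, 70, 72 and 86. The exact Poisson 95% intervals were 3.05 to 5.13 CPM for lymphoma 72, the lowest, and 6.92 to 10.04 CPM for lymphoma 86, the highest. They cover counting error only, and the pair was picked for its values. Lymphoma 72, with the lowest sum, had the highest Ighm. No library of pure B cells is in the series, so these sums were not turned into a share of cells, and in bulk RNA fewer cells of a type and less RNA per cell cannot be told apart. Relative to the summed CD3 chains (Cd3e, Cd3d and Cd3g), the 8 genes stood at 123%, 142% and 110% in CD4 1, 2 and 3 and at 0.526% to 1.25% in the lymphomas, as ratios of CPM.

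**Figure D2:**
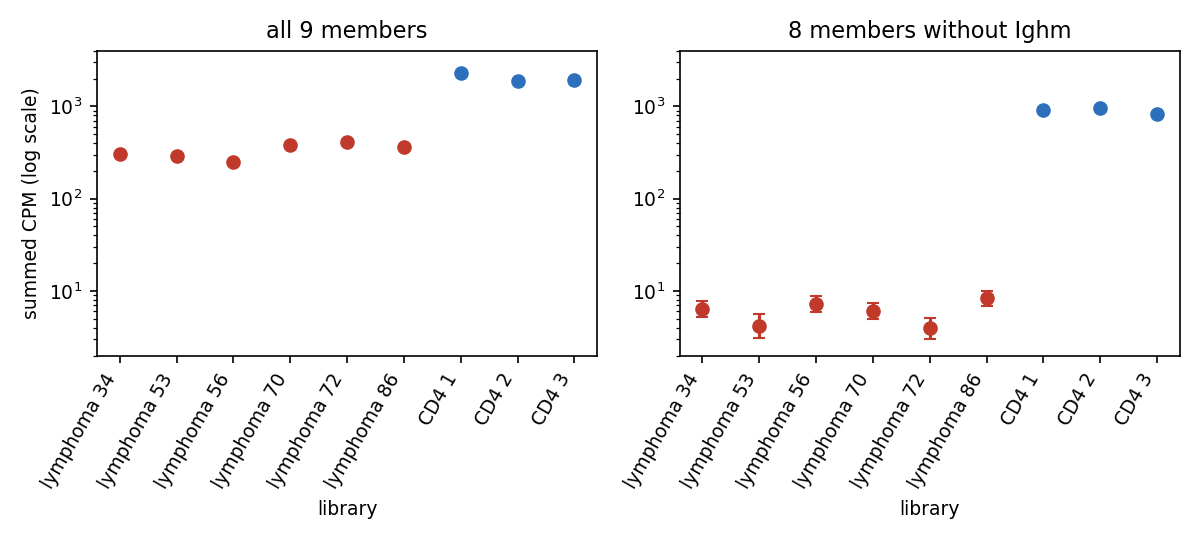
Summed CPM on a log scale per library, for the 9 genes on the left and for the 8 without Ighm on the right, with exact Poisson 95% intervals that cover counting error only and are smaller than the points where they cannot be seen. The lymphomas (red) sit at 249 to 408 CPM with Ighm and at 3.99 to 8.37 CPM without it.

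The genes differed in how they varied among the lymphomas. The coefficient of variation of Ighm over the 6 lymphomas was 0.188, against 0.0147 from counting error alone. Blnk varied by 0.315, close to the 0.264 that its counts alone would give, and Fcer2a by 1.14 against 1.001. For Ebf1 the values were 0.431 and 0.256, for Pax5 0.694 and 0.290, for Cd79b 0.676 and 0.217, for Ms4a1 0.916 and 0.270 and for Cd22 1.11 and 0.409. The genes did not rank the lymphomas alike. Cd79b and Blnk were highest in lymphoma 34, Ebf1 and Fcer2a in 56, Ighm in 72, and Pax5, Ms4a1, Cd22 and Cd79a in 86. As shares of the 8 genes' pooled counts, Cd79b took 24.9% in lymphoma and 14.8% in CD4, and Blnk 16.9% and 8.05%. Ebf1 took 17.8% in lymphoma and 24.4% in CD4, Ms4a1 15.9% and 23.2%, and Pax5 13.8% and 13.5%. The lymphoma shares rest on 46 to 116 counts per library. Blnk took 10% to 30.4% in single lymphomas and at most 9.09% in a CD4 library, so that all 6 lymphomas were above CD4. These shares rest on 10 to 24 Blnk counts per lymphoma. Blnk was named for its values, so the separation carries no test. Cd79b was split, with 48%, 37.0% and 32% in lymphomas 34, 53 and 56 and 14.1%, 6.56% and 12.9% in 70, 72 and 86, against 14.1% to 15.4% in CD4.

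The CD4 libraries differed less. The highest over the lowest CD4 library was 1.02 for Pax5, 1.06 for Cd22 and 1.23 to 1.30 for Cd79b, Ebf1, Cd79a, Ms4a1 and Fcer2a. It was 1.45 for Ighm and 1.46 for Blnk. Ebf1, Cd79b, Blnk, Fcer2a and Cd22 stood highest in CD4 2 and lowest in CD4 3. The share of all tested genes in that order was not computed, so their shared order is description only. Ighm stood highest in CD4 1 and lowest in CD4 2. Of the other B lineage genes described below, 21 of 85 tested had the order of Ighm and of the 9 summed (1, then 3, then 2), where 18.6% of all tested genes had it.

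Other genes of the immunoglobulin loci were set beside Ighm. Igkc, the constant region of the kappa light chain with which most mouse antibodies are built, had 1958, 1243 and 1344 CPM in CD4. It had 23.8, 89.6, 96.2, 26.9, 21.7 and 101 CPM in lymphomas 34, 53, 56, 70, 72 and 86, a residue of 3.95%. Lymphomas 53, 56 and 86 lay above the other 3 in Igkc, and in Ighm they did not. Per library, 1 count of Igkc stood beside 0.702 to 0.833 counts of Ighm in CD4 and beside 2.52 to 18.6 in lymphoma, with no overlap. Ighd, the IgD constant region that naive B cells co-express with Ighm from a shared transcript, had 163, 148 and 136 CPM in CD4. In lymphoma it had 6.38, 12.1, 3.71, 9.62, 9.82 and 2.31 CPM, a residue of 4.92%, lowest in lymphomas 56 and 86. Counts of Ighm per count of Ighd ranged from 6.39 to 8.45 in CD4 and from 23.5 to 154 in lymphoma. Igha, the IgA constant region, and Jchain, which joins the units of secreted IgA and IgM, were both highest among lymphomas in lymphoma 86, at 26.6 and 9.31 CPM, against at most 9.97 and 2.82 CPM in the other 5. The lower levels of Igkc, Ighd and Igha were past the threshold by edgeR's quasi-likelihood test (adjusted p 9.93e-05, 1.09e-05 and 0.000929), and each was lower in 6 of 6 lymphomas than in any CD4 library. Ratios with Ighm were formed after the values had been seen, and carry no test.

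Light chain variable segments, which are joined to the constant regions in B cells, had few counts in the lymphomas. Variable segments lie far from the 3′ end that was read. The kappa segments (Igkv, 162 genes) had 231 counts in the 3 CD4 libraries and 13 in the 6 lymphomas, and the lambda segments (Iglv, 3 genes) 1084 and 8. The heavy chain segments (Ighv, 185 genes) had 39 and 22 counts, with 0 in CD4 1 and 11 in lymphoma 34, and the heavy chain joining segments (Ighj, 4 genes) 17 and 0. The counts of the heavy chain segments overlapped between the groups. These segment sums were chosen after values had been seen, and near-identical segments are uncertain because reads aligned to several places were not assigned to a gene.

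**Figure D3:**
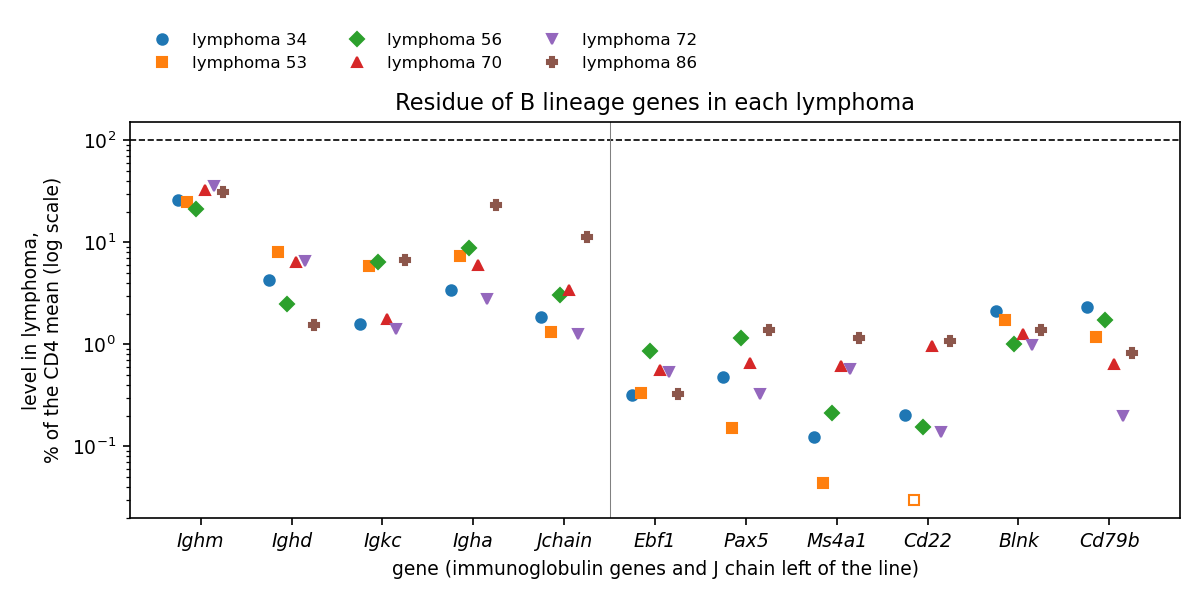
Level of 11 B lineage genes in each lymphoma as a percentage of the CD4 mean, on a log scale, with a dashed line at 100% and an open square at an arbitrary height for the 0 counts of Cd22 in lymphoma 53. Cd79a and Fcer2a, with at most 6 counts per lymphoma, are left out, and Ighm stands at 21.1% to 35.2% while Igha and Jchain are highest in lymphoma 86.

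Beyond the 9 genes, 90 other genes of the B lineage were arranged in 6 lists, of which 85 were tested. In lymphoma 67 were lower and 7 higher, or 78.8% lower, where 21.9% of all tested genes were lower and 24.7% higher. The median log2 fold change over the 85 was -2.67, against 0.04 over all tested genes. All adjusted p values here come from edgeR (quasi-likelihood) and are adjusted over the 15401 genes by Benjamini and Hochberg's method.

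Of 20 genes for B surface proteins and coreceptors, 18 were lower and 2 higher, with a median of -3.41. Cr2, the complement receptor CD21 of mature B cells, fell from 381 ± 63.3 to 4.12 ± 2.07 CPM (log2 fold change -6.52, SE 0.382, adjusted p 3.98e-07). Cd37, a tetraspanin that T cells also express, fell (log2 fold change -1.54, SE 0.228, adjusted p 0.000195), with 83.5 to 193 CPM in the lymphomas. The tetraspanin Cd81 and the glycoprotein Cd24a went the other way. Cd81 rose from 50.6 to 105 CPM (log2 fold change 1.06, SE 0.234, adjusted p 0.00297). Cd24a, also found on thymocytes, rose from 41.2 to 194 CPM (2.23, SE 0.269, adjusted p 4.48e-05). For both, 6 of 6 lymphomas were above every CD4 library. The share of all tested genes with that separation is not reported here.

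Of 19 genes of B receptor signalling, 16 were lower, 0 were higher and 3 did not pass, with a median of -2.29. Ralgps2, a guanine exchange factor, fell from 323 ± 6.85 CPM to 33.7 ± 23.3 CPM (log2 fold change -3.27, SE 0.486, adjusted p 0.000358). Prkcb, a kinase that carries the signal towards NF-kB, had 271 ± 10.7 CPM in CD4 and 83.4 to 258 CPM in lymphoma (log2 fold change -0.89, SE 0.295, adjusted p 0.0264). That call was lost without lymphoma 34 or 56 or without any 1 CD4 library, where the adjusted p was 0.0507 to 0.0777. Ptpn6, the phosphatase that CD22 recruits and that T cells also use, had 310 CPM in CD4 and 94.9 to 296 CPM in lymphoma (adjusted p 0.130). Without lymphoma 53 its adjusted p was 0.0378. Vav1, an exchange factor shared by B and T cells, stood at 123 ± 13.7 CPM in CD4 and 119 ± 12.2 CPM in lymphoma (adjusted p 0.816).

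Of 18 transcription factor genes, 14 were lower and 2 higher, with a median of -2.53. Foxo1, which acts in early B cells and in resting T cells, fell from 415 ± 26.4 CPM to 56.4 ± 54.4 CPM (log2 fold change -2.88, SE 0.542, adjusted p 0.00168). The lymphoma value rested on lymphoma 53, at 167 CPM, and the change was -3.60 without it. Irf8, a factor of B and dendritic cells, had 322 CPM in CD4 and 31.9 to 269 CPM in lymphoma, again highest in 53 (log2 fold change -2.01, SE 0.682, adjusted p 0.0365). Without lymphoma 53 the change was -2.93, and leaving out any other library, or the filter on low counts, lost the call, at adjusted p 0.0529 to 0.0918. Ikzf1, a factor of all lymphocytes, was lower (log2 fold change -0.48, SE 0.158, adjusted p 0.0257), a call lost without lymphoma 34 or 56, without CD4 3 or without the filter, at adjusted p 0.0579 to 0.169. Tcf3, the E protein needed for both B and T cell development, rose from 55.3 to 124 CPM (1.17, SE 0.154, adjusted p 8.70e-05). Id3, an inhibitor of E proteins, was higher at 1.45 (SE 0.417, adjusted p 0.0148), with 75.3 CPM in lymphoma 53 inside the CD4 range. That call was lost without CD4 2 or CD4 3, at adjusted p 0.0658 and 0.0680.

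Of 12 immunoglobulin constant and J chain genes other than Ighm, 11 were tested, 10 were lower and 1 did not pass, with a median of -4.66. Iglc3, a lambda constant region with near-identical copies, fell from 101 ± 23.8 to 0.918 ± 1.37 CPM (log2 fold change -6.76, SE 0.805, adjusted p 0.000103), and the change was -7.98 without lymphoma 86. The log2 fold changes of Igkc, Ighd and Igha were -4.66 (SE 0.554), -4.35 (SE 0.409) and -3.54 (SE 0.603). The calls of Ighg2b and Ighg2c (adjusted p 0.0384 and 0.0457) were lost without any 1 CD4 library.

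Of 7 precursor B genes 5 were tested and 2 were lower, and Igll1 and Vpreb2, which encode parts of the surrogate light chain, had 0 counts in every CD4 library. Igll1 also had 0 counts in every lymphoma. Vpreb3, which is kept in mature B cells, fell from 23.1 ± 13.5 to 0.800 ± 1.10 CPM (log2 fold change -4.81, SE 0.907, adjusted p 0.00142). Its change was -5.88 without lymphoma 72 and -4.19 without CD4 1. Cd93 fell too (log2 fold change -2.17, SE 0.661, adjusted p 0.0179), with an adjusted p of 0.104 without CD4 1. Vpreb1 and Bst1 did not pass (adjusted p 0.381 and 0.960). Bst1 was at 9.31 CPM in lymphoma 53 and at most 0.722 CPM in the other lymphomas.

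Of 14 germinal centre and plasma cell genes 12 were tested, 7 were lower and 3 higher, with a median of -1.17. Mzb1, a chaperone of antibody assembly, fell from 42.7 ± 11.6 to 0.420 ± 0.474 CPM (log2 fold change -6.63, SE 0.666, adjusted p 1.62e-05), and the change was -7.33 without lymphoma 86. Bcl6, a repressor of germinal centre B cells and follicular helper T cells, fell (log2 fold change -2.76, SE 0.511, adjusted p 0.00120), and the change was -3.39 without lymphoma 53. Xbp1, the factor of secretory cells, fell (log2 fold change -0.77, SE 0.233, adjusted p 0.0177), a call lost without CD4 3 (adjusted p 0.173). Gcsam, a germinal centre adaptor, rose from 1.73 ± 0.973 to 22.8 ± 12.9 CPM (log2 fold change 3.69, SE 0.635, adjusted p 0.000624). Sdc1, the plasma cell marker CD138, rose from 1.40 ± 0.610 to 14.6 ± 6.36 CPM (3.37, SE 0.516, adjusted p 0.000254), and Fkbp11 from 2.70 to 10.9 CPM (2.01, SE 0.512, adjusted p 0.00697), a call lost with limma voom (adjusted p 0.0644).

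**Figure D4:**
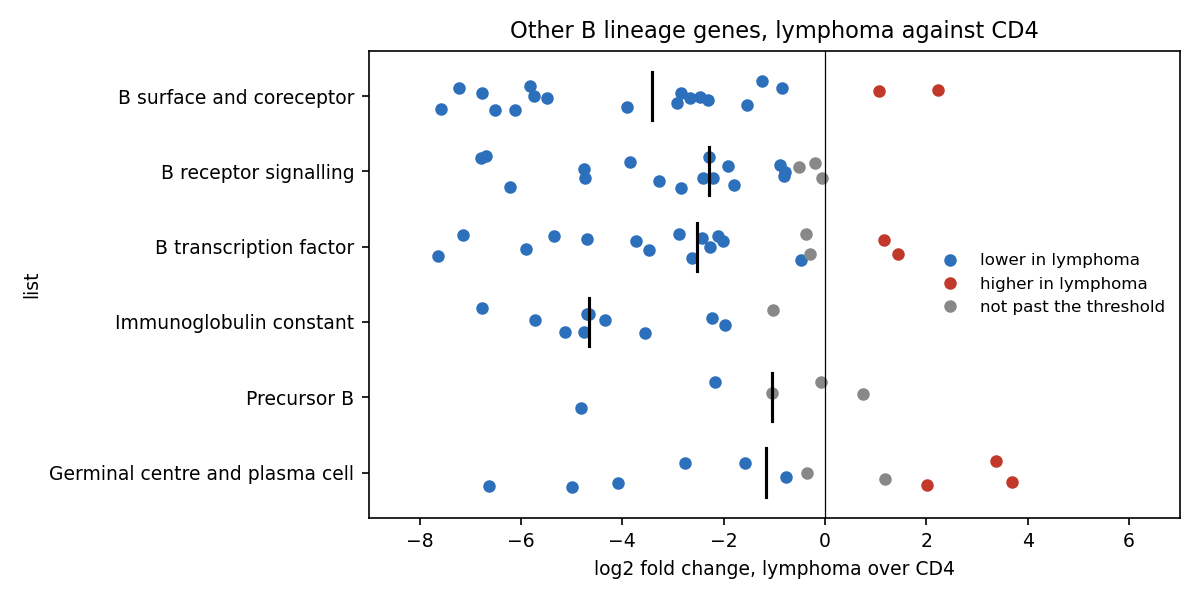
Fitted log2 fold change, lymphoma over CD4, of 83 of the 85 tested B lineage genes that are not among the 9, by list, with blue lower, red higher, grey not past the threshold and a black bar at the median of all tested genes of the list. The list medians run from -4.66 for the immunoglobulin constant genes to -1.04 for the precursor genes.

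Some markers of other cell types were also lower in lymphoma, where 21.9% of all tested genes were lower and 24.7% higher. Near the 21.9% were the erythroid and platelet (22.2%), T cell (28.6%) and myeloid (30%) markers. Their counts are therefore not read as a loss of those cells. Of 8 NK cell markers 5 were lower and 1 higher, with sums of 192 to 219 CPM in CD4 and 336 to 817 CPM in lymphoma, where Gzma led. The defining NK marker Ncr1 had 0 counts in every lymphoma and Klrb1c had 0 to 61.2 CPM. Of 7 tested plasmacytoid dendritic cell markers 6 were lower, with sums of 266 to 296 CPM in CD4 and 31.9 to 74.3 CPM in lymphoma, and Siglech had 64.6 CPM in CD4 and at most 0.367 CPM in lymphoma, while Bst2 had 25.9 and 13.9 CPM on average. Of 8 dendritic cell markers 6 were lower, with sums of 286 to 310 CPM in CD4 and 25.6 to 53.3 CPM in lymphoma. Their defining markers Flt3 and Zbtb46 had 11.2 and 45.5 CPM in CD4 and 1.002 and 13.2 CPM in lymphoma. Of 10 myeloid markers 3 were lower, with sums of 487 to 623 CPM in CD4 and 55.0 to 2156 CPM in lymphoma, and Lyz2 and Csf1r had 84.7 and 44.6 CPM in CD4 and 45.3 and 6.76 CPM in lymphoma. Of 9 tested erythroid and platelet markers 2 were lower, with sums of 110 to 367 CPM in CD4 and 14.3 to 894 CPM in lymphoma, and Hbb-bs and Hbb-bt had 83.7 and 33.2 CPM in CD4 and 113 and 32.9 CPM in lymphoma. Of 14 T cell markers 4 were lower, with sums of 4682 to 5185 CPM in CD4 and 2881 to 5385 CPM in lymphoma. The part of these cells in the values of genes that B cells share with them, such as Irf8, Syk, Tcf4 or Bst1, was not tested.

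Other genes were ranked by likeness in pattern to the mean of the 9. The measure was the root mean square difference between a gene and that mean over the 9 libraries. Each gene was in log2 CPM centred on its own mean. The 9 genes themselves lay at 0.486 (Blnk) to 2.17 (Ighm), all farther from their mean than the 10 closest genes. The 10 closest were Klre1 (0.233), Klra13-ps (0.306), Nxpe4 (0.313), Ncr1 (0.362), Klra4 (0.381), 5730488B01Rik (0.385), Scd1 (0.396), Xist (0.400), C230085N15Rik (0.403) and RP23-272P19.10 (0.421), in log2 units. Klre1, Klra13-ps, Klra4 and Ncr1 belong to NK cell receptor families, and Scd1 encodes a fatty acid desaturase. 5730488B01Rik lies within the Pax5 locus on the opposite strand. Xist, the X inactivation RNA of female cells, had 547 ± 47.1 CPM in CD4 and 7.98 ± 2.64 CPM in lymphoma. The labels give no sex, and whether the groups differ in sex was not tested. Such a difference could not be told apart from lymphoma against CD4 in this design. None of the 10 is a B cell gene on the lists used here, and the measure follows the step between the groups, so likeness by it is not particular to B cells.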

How the data were processed

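RNA from 6 lymphomas and 3 CD4 preparations was compared. Per the file headers, the deposited values are raw counts of reads, 1 count per Ensembl gene and library. HISAT2, SAMtools, HTSeq and FastQC and the builds mm10 and GRCm38 are named, without versions, in the submitters' processing notes. Neither annotation nor strand setting is given in the sources used here. Of the value columns, 0 matched no sample. Closing summary rows named no gene and were left out. Reads in genes made up 38.7% to 49.1% of a lymphoma library and 27.8% to 35.0% of a CD4 library, so the summary rows held the rest.

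The 9 genes and all lists were chosen with earlier results of these data known. Group differences were tested on the counts by edgeR 4.0.16 (R 4.3.3): filterByExpr by group with a minimum count of 10, TMM, glmQLFit (robust) and glmQLFTest, all 9 libraries, no covariate, with Benjamini-Hochberg adjustment over 15401 genes and a threshold of 0.05. Standard errors are the absolute log2 fold change over the square root of F. Log2 CPM used a prior count of 2. Intervals at 95% are exact (scipy 1.17.1) and, like the floor of 3 counts, cover counting error only, since PCR copies of a molecule are not told apart. DESeq2 1.42.0, limma 3.58.1 (voom), other scalings, filters and leaving out each library were alternatives. The fit was tested on simulated data. Named genes are the 9, the 4 most abundant tested genes of each list, those called against their list's direction, Igkc and the 10 most alike in pattern. Some genes of the lists are not reported here by name. Loci come from GENCODE M21 (GRCm38), matched by Ensembl ID. Replicates were compared, and no pair was identical.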

Additional observations from a re-analysis of the deposited data

Results flagged for a closer look

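Among the 6 lymphomas, each of 39 values (the 9 genes, 28 named genes and 2 sums) was screened with Dixon's ratio for 1 library lying apart, with a critical value of 0.625. This met 8 of the 39. The nominal rate of about 1 in 20, or 1.95, holds for independent values with a normal distribution. The 39 were CPM values, some on few counts, and the sums hold the same genes, so 8 against 1.95 is no test. Lymphoma 53 was far above the other lymphomas for Foxo1 (167 CPM, the next 43.1), Irf8 (269 CPM, the next 72.3), Bcl6 (24.7 CPM, the next 6.81) and Bst1 (9.31 CPM, the next 0.722). Lymphoma 86 was far above the others for Igha (26.6 CPM, the next 9.97) and Iglc3 (3.68 CPM, the next 0.654). Lymphoma 72 was far above for Vpreb3 (2.95 CPM, the next 0.903). Fcer2a was highest in lymphoma 56 (0.218 CPM), on 3 counts.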

How the results depend on the processing

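Over 14 alternative fits (scalings, DESeq2, voom and left-out libraries) the fitted changes of the 9 genes kept their sign. Changes of the 9 under the other filters on low counts are not reported here. The change of Fcer2a was -9.58 without lymphoma 56. With limma voom the changes were -8.44 for Cd22 (-7.80 in edgeR), -7.67 for Iglc3 and -5.70 for Vpreb3. Leaving out Ighm took the summed level from 2042 to 896 CPM in CD4, from 332 to 6.06 CPM in lymphoma, and the residue from 16.3% to 0.676%. Leaving out 1 library gave residues of 15.5% to 17.3%, CD4 sums of 1918 to 2115 CPM and lymphoma sums of 317 to 349 CPM. With at least 10 counts in every library, which tests fewer genes, 12 surface, 4 immunoglobulin constant, 0 precursor and 4 germinal centre or plasma cell genes were called. At an adjusted p under 0.01, 1 precursor gene was called. Leaving out 1 library gave 1 to 2 precursor genes, 8 to 11 immunoglobulin constant genes, 12 to 16 transcription factor genes, 14 to 17 signalling genes, 19 to 20 surface genes, 9 to 10 germinal centre and plasma cell genes and 5871 to 8137 genes in all. Of the 74 listed genes called, 60 kept the call in every alternative that tested them at the same threshold. The order of the CD4 sums without Ighm was the same under all 4 scalings, and with Ighm it was 1, 2, 3 under upper quartile scaling. No paired analysis was possible because the groups share no replicate number. Counts of 0 to 6 limit what can be said of Cd79a and Fcer2a in a single lymphoma.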
